A study of Mus musculus with 9 samples.

Results

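Cells that were dividing and carried transcripts of the Dlx genes were followed in single-cell RNA profiles of the mouse neocortex at E18.5. A cell was counted as a member when at least 3 of the 6 mitotic genes Top2a, Mki67, Cenpf, Ube2c, Ccnb1 and Nusap1, and Dlx1 or Dlx2, had a UMI and Eomes had none. A UMI, or unique molecular identifier, marks a single captured transcript. Cells rich in haemoglobin transcripts, with over 1% of UMIs on them, had been removed. This gave 475 members among 19686 kept cells of 22147 deposited ones. The members were chosen by the measured UMIs of these 9 genes, whose values are given as a description, with no test.

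Each of the 9 libraries held the dissected neocortex of a single embryo of the Tcf4ex4WT/lacZ line, 5 labelled WT and 4 labelled KO. In general the paper used littermates of both sexes, but which libraries share a litter is not given in the sources used here. KO embryos were homozygous for a lacZ and neomycin cassette in Tcf4 in all their cells, which removes the long isoform TCF4B and leaves shorter ones such as TCF4A, so they are no model of a complete loss. WT2, WT3 and WT4, with 64, 65 and 268 members, were compared with KO4 and KO5, with 35 and 15, so that 397 WT and 50 KO members entered the tests. Values listed for the WT and for the KO follow this order of libraries throughout. The other libraries held 2 (WT1), 11 (WT5), 7 (KO1) and 8 (KO2) members and are given beside the results they touch. The cells were labelled ganglionic eminence progenitors. They are called cycling Dlx-positive cells here, by the rule, since most KO members also carried cortical glutamatergic transcripts.

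The ganglionic eminences are the ventral germinal zones of the embryonic forebrain, from which the inhibitory, GABA-using neurons of the cortex migrate in. Dlx1 and Dlx2 encode homeodomain transcription factors that act there ahead of Dlx5 and Dlx6 and the GABA-synthesising enzymes, and they are switched on while progenitors still divide. Progenitors native to the cortex instead use Pax6 and, on their way to glutamatergic neurons, Eomes, Neurod2, Neurod6 and Tbr1. Tcf4 encodes an E-protein, the partner with which proneural bHLH factors bind DNA. The mitotic genes of the rule serve late in the cycle. Top2a untangles sister chromatids, Mki67 coats mitotic chromosomes and Cenpf sits at the kinetochore. Ccnb1 drives entry into mitosis, Ube2c drives the exit from it, and Nusap1 bundles the spindle.

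Genes of this phase are often switched on together through a cell cycle genes homology region, TTTGAA or TTCGAA on either strand, close to the start of transcription. The 150 bases upstream of the start are shown for 5 rule genes and for Hmgb2, a chromatin gene of dividing cells. They are from RefSeq on GRCm38.p6 and run 5′ to 3′ on the strand of the gene, with matches in capitals. They show which of these windows hold the motif.
Top2a: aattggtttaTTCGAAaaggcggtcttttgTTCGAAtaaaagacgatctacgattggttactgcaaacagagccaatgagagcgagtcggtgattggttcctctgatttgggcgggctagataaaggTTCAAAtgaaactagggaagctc
Mki67: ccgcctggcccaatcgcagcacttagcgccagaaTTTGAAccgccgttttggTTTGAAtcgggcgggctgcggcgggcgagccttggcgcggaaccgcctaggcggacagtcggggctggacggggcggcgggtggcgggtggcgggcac
Ube2c: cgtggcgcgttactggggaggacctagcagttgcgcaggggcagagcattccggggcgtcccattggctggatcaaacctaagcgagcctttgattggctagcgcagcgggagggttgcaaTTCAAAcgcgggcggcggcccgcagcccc
Hmgb2: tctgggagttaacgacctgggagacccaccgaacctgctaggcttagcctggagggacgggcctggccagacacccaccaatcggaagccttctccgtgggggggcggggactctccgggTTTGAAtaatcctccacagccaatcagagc
Cenpf: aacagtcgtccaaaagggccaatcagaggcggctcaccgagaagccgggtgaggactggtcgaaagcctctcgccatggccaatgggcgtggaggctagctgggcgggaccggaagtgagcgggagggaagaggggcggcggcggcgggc
Ccnb1: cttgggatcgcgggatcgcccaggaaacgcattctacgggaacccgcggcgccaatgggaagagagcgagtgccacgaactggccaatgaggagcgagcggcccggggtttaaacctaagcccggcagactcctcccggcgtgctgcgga
The windows lie at chr11:99024190-99024339 (minus strand) for Top2a, chr7:135716380-135716529 (minus) for Mki67, chr2:164769779-164769928 (plus) for Ube2c, chr8:57511693-57511842 (plus) for Hmgb2, chr1:189688087-189688236 (minus) for Cenpf and chr13:100786487-100786636 (minus) for Ccnb1. Top2a held 3 matches, at 140, 120 and 23 bases upstream, Mki67 held 2, and Ube2c and Hmgb2 held 1 each. Neither letter string occurs in the windows of Cenpf and Ccnb1, which both hold 2 CCAAT boxes (CCAAT on either strand). The window of Nusap1, which is not printed, holds no match of either kind. Of the promoters of the G2/M list used below, 42 of 50 genes were matched, and 21 of 44 promoters (47.7%) held the motif within 250 bases upstream, against 5633 of 32851 (17.1%) of all promoters. For CCAAT boxes the shares were 77.3% and 33.8%. The promoters of S-phase genes held the homology region in 13.2% and those of ventral regulators in 17.1%, close to all promoters.

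The 5 compared libraries held 3487769 to 29767293 UMIs, and their kept cells numbered 1185, 1617 and 6173 in the WT and 4201 and 2303 in the KO. The haemoglobin filter took 0.420 to 1.34% of cells from the WT and 13.9 and 40.4% from KO4 and KO5. Outside the members, Tcf4 stood at 12.3, 12.8 and 12.3 UMIs per 10000 in the WT and at 9.30 and 7.59 in the KO. The libraries labelled WT1 and WT5 lay at 4.65 and 7.21 and that labelled KO1 at 16.9, against their labels. The paper excluded a WT animal for Tcf4 below the KO, so the order of the compared libraries is no check of their labels. The 3′ tags count all Tcf4 isoforms, so they cannot show the loss of TCF4B. WT2 and WT3 were deposited on another scale than the other 3 and were brought back to UMIs, and WT4, deposited like both KO libraries, lies with WT2 and WT3 in the results below unless stated. KO5 had 0 Xist UMIs in its members and 6 on 4 Y-linked genes, while members of the other 8 libraries had Xist UMIs and none on the Y, so sex was not balanced. Between 0 and 46 cell barcodes were shared by pairs of libraries, 2 of them of members.

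In the WT the members carried the genes of the ganglionic eminences beyond Dlx1 and Dlx2. Dlx5 was detected in 29.7, 47.7 and 58.2% of WT members and 11.4 and 6.67% of KO members. The antisense RNA Dlx6os1 was detected in 46.9, 50.8 and 67.9% of WT members and 20 and 13.3% of KO members. In both genes each WT library lay above both KO libraries. Meis2, a homeobox gene of the lateral and caudal eminences, was the most widespread of these, in 84.4, 92.3 and 90.3% of WT members and 80 and 80% of KO members. It was about as widespread in WT cycling cells with no UMI of Dlx1, Dlx2 or Eomes, at 75.8, 93.2 and 84.2%. Its detection thus does not set the members apart. Gad2, for GABA synthesis, was found in 20.3, 43.1 and 49.6% of WT members and 20 and 0% of KO members. Nkx2-1, the regulator of the medial eminence, was detected in 4.69, 0 and 4.48% of WT members and 0 and 0% of KO members, so its transcripts were rare throughout.

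Transcripts of listed ventral regulators were found in most members of both genotypes. Most KO members had glutamatergic ones beside or instead of them. The list of ventral regulators holds Meis2 and also Pax6, which cortical progenitors use, so it is not specific to ventral cells. Pax6 was detected in 41.9, 61.6 and 43.4% of WT cycling cells with no UMI of Dlx1, Dlx2 or Eomes. With at least 3 UMIs taken as presence, 68.8, 86.2 and 77.2% of WT members had UMIs of the other ventral regulators and fewer than 3 of 9 cortical glutamatergic genes, against 28.6 and 13.3% in the KO. Members with both sets made up 25, 9.23 and 22.8% in the WT and 57.1 and 46.7% in the KO. Members with the glutamatergic set alone were 1.56, 0 and 0% in the WT and 14.3 and 33.3% in the KO. The latter are 5 cells in each KO library. The cut was applied at median depths of 2732, 4046 and 5480 UMIs in the WT and 2791 and 2458 in the KO. These classes were not repeated on thinned cells. The share with the ventral set was not tested in cycling cells with no UMI of Dlx1, Dlx2 or Eomes. Scaled sums of these regulators, as given below, were 30.3, 29.6 and 35.6 in WT members and 15.9, 16.4 and 16.9 in such WT cells. In the KO they were 16.6 and 12.3 in members and 14.8 and 12.7 in such cells. These KO sums lay close together, so presence of the set does not show a ventral identity of KO members. A transcript can also come from RNA free in the suspension. In endothelial and microglial cells, which should lack the Dlx genes, Dlx1 or Dlx2 had a UMI in 11.1, 20 and 17.3% of 18, 10 and 75 cells of WT2, WT3 and WT4, and in 10.3 and 9.09% of 107 and 33 cells of KO4 and KO5. Median depths there were 3574.5, 3595 and 3549 UMIs in the WT and 2307 and 2215 in the KO. With at least 2 UMIs required, these cells fell to 0, 0 and 4.0% in the WT and 0 in both KO libraries, where 0 of 107 and 0 of 33 cells allow a share of up to 2.80 and 9.09%.

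Genes leading in the members, ordered by the ratio of their means over the 5 libraries, are named as a description, since they follow the rule. Against all other kept cells, the leading genes included the cohesin protector Sgol2a (14-fold), Top2a (13-fold) and the microtubule-binding Hmmr (12.6-fold). Against cycling cells with neither Dlx gene and no Eomes, called cycling Dlx-negative cells here, Dlx5 led with 9.78-fold and was followed by Sp9 (5.19-fold), a zinc finger factor of interneuron progenitors. Rnd3 (3.66-fold), Abracl (2.89-fold), Gadd45g (2.77-fold) and the G1 cyclin gene Ccnd2 (2.62-fold) came next. Against Dlx-positive cells with none of the 6 mitotic genes, called non-cycling here, they were Sgol2a (97.2-fold), Hmmr (54.1-fold), the spindle-pole gene Aspm (50.6-fold) and the mitotic kinase gene Aurka (41.1-fold). In all 5 libraries, 296, 159 and 287 genes were higher in the members than in these 3 kinds of cells, in that order, among genes with a mean of at least 1 UMI per 10000 in the members.

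The members were a larger share of the kept cells in the WT than in the KO. They made up 5.40% (95% exact binomial interval 4.18 to 6.85), 4.02% (3.12 to 5.10) and 4.34% (3.85 to 4.88) of the WT and 0.833% (0.581 to 1.16) and 0.651% (0.365 to 1.07) of KO4 and KO5. The groups did not overlap. The mean was 4.59% ± 0.723 (SD, n = 3) in the WT and 0.742% ± 0.129 (SD, n = 2) in the KO, 6.18-fold lower, with a 2-sided exact permutation p = 0.1, the smallest that 3 animals against 2 allow. The intervals cover counting error only. After every cell was thinned to 1800 UMIs, the shares were 4.22, 2.41 and 2.51% against 0.476 and 0.304%, and with at least 2 Dlx UMIs they were 3.63, 3.03 and 3.74% against 0.309 and 0.0868%. Members under 3000 UMIs were 3.46, 0.495 and 0.162% of kept cells of any depth in the WT and 0.524 and 0.391% in the KO. The groups overlapped and WT4, with a median of 4359 UMIs per kept cell, lay lowest. Kept cells above 3000 UMIs stayed in the denominator. Of 69, 16 and 19 cycling cells without Eomes under 3000 UMIs in the WT, the members were 59.4, 50 and 52.6%. Of 110 and 44 such cells in the KO they were 20 and 20.5%, without overlap.

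The size of this difference moved with the cells admitted and with the libraries. The ratio of the means was 2.79 with at least 2 mitotic genes, 11.6 with at least 4, 7.82 after thinning and 17.5 with at least 2 Dlx UMIs. Among the libraries left out of the comparison, WT1 had 1.57%, WT5 0.303%, KO1 2.11% and KO2 6.78%. WT5 thus lay below both compared KO libraries, and KO2, with 8 members of 118 cells, above the 3 WT ones. With all 9 libraries taken as labelled, the means were 3.13% and 2.59% (exact permutation p = 0.73). The filter on haemoglobin removed more KO than WT cells, and of all deposited cells the members were 4.55% and 0.553%.

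**Figure D1:**
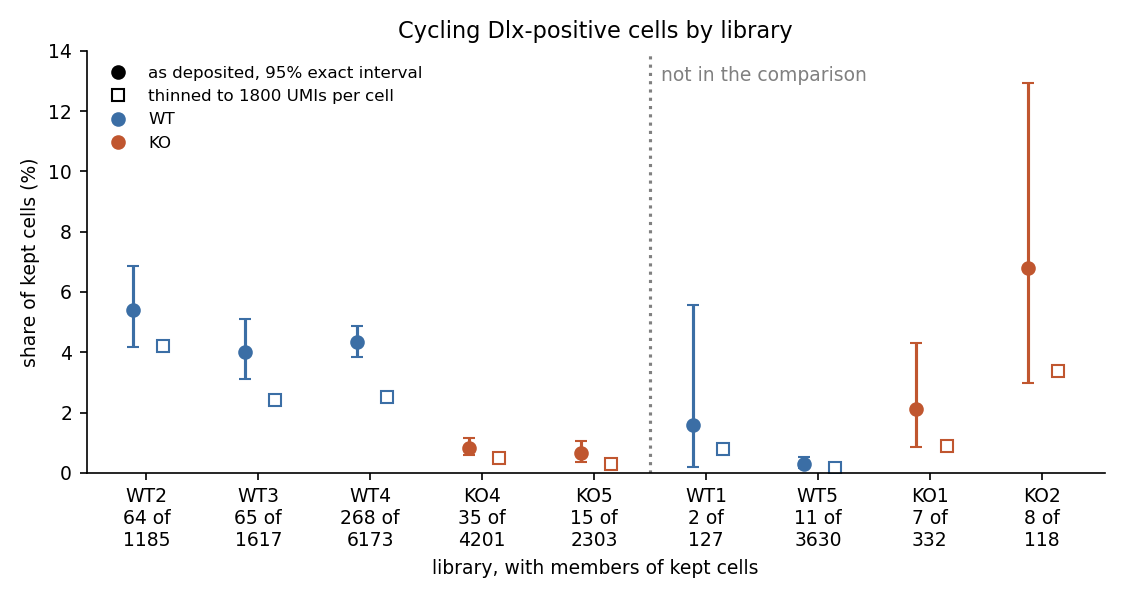
Share of kept cells (%, vertical axis) that were cycling Dlx-positive in each library, with the members and kept cells under its name. Filled circles are the deposited cells with 95% exact binomial intervals and open squares are cells thinned to 1800 UMIs. WT2, WT3 and WT4 lie between 4.02 and 5.40% and KO4 and KO5 at 0.833 and 0.651%, while the 4 libraries right of the dotted line, outside the comparison, run from 0.303 to 6.78%.

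Both steps of the rule took part in that share. Cycling cells without Eomes, Dlx-positive or not, made up 10.6, 8.53 and 6.80% of kept cells in the WT and 4.0 and 2.74% in the KO (exact permutation p = 0.1). Of these, the members were 50.8, 47.1 and 63.8% in the WT and 20.8% (95% exact interval 15 to 27.8) and 23.8% (14 to 36.2) in the KO, again without overlap (p = 0.1, exact permutation test). Thinned to 1800 UMIs, they were 44.6, 35.5 and 54.2% and 21.1 and 20%. Non-cycling Dlx-positive cells did not follow this order, at 5.91, 5.5 and 15.3% of kept cells in the WT and 6.52 and 7.56% in the KO (exact permutation p = 1). The KO shares of 20.8 and 23.8% can be set beside the 10.3% (5.24 to 17.7) and 9.09% (1.92 to 24.3) of endothelial and microglial cells, whose intervals overlap with theirs. With at least 2 Dlx UMIs they were 7.74 and 3.17% of cycling cells without Eomes in the KO and 34.1, 35.5 and 55.0% in WT2, WT3 and WT4.

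At the edge of the rule, the KO members stood closer to its thresholds. Exactly 1 UMI on Dlx1 and Dlx2 together was found in 32.8, 24.6 and 13.8% of members of the WT and in 62.9 and 86.7% of KO4 and KO5. The median member had 2.5, 3 and 5 Dlx UMIs in the WT and 1 in both KO libraries, and 323 WT but only 15 KO members had 2 or more. Thinned to 1800 UMIs, the shares with 1 Dlx UMI were 34, 41.0 and 38.1% and 75 and 71.4%. Just 3 of the mitotic genes were detected in 17.2, 23.1 and 15.3% of WT members and 48.6 and 66.7% of KO members. All 6 were detected in 160 WT and 2 KO members. Depth moved with this in part, since members had a median of 2732, 4046 and 5480 UMIs in the WT and 2791 and 2458 in the KO (exact permutation p = 0.3). In thinned cells, 5 or 6 mitotic genes were seen in 52, 38.5 and 43.2% of WT members and in 10 and 0% of KO members.

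**Figure D2:**
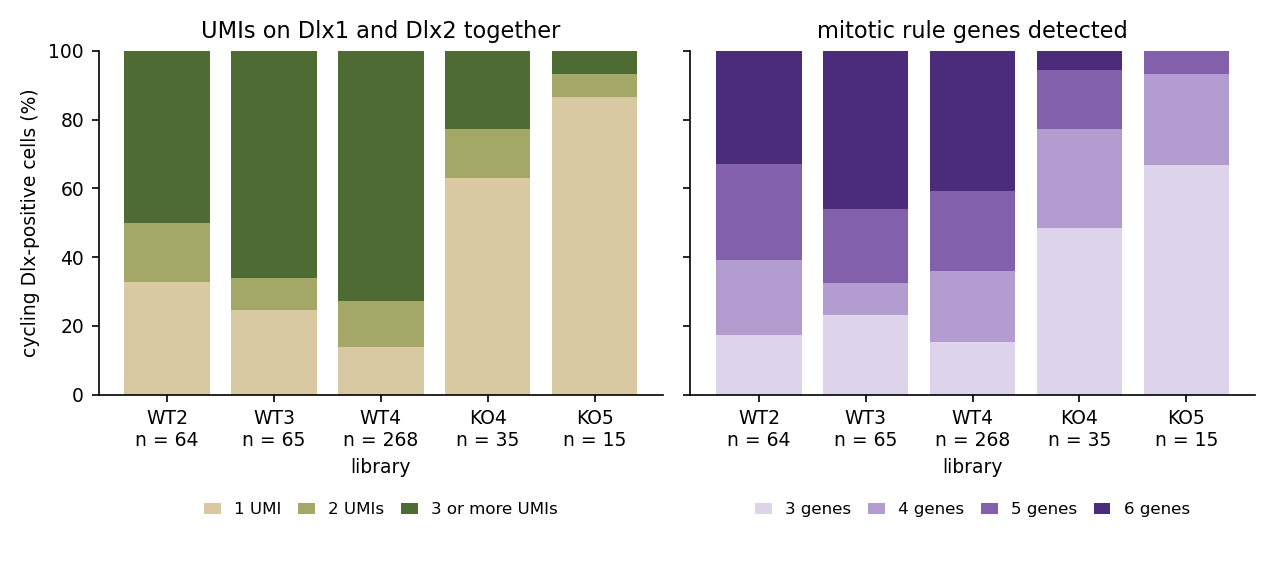
Members of each compared library (%, vertical axis) by their UMIs on Dlx1 and Dlx2 together (left) and by how many of the 6 mitotic genes were detected (right), with the number of members under each library. The bars of a single Dlx UMI reach 13.8 to 32.8% in the 3 WT libraries and 62.9 and 86.7% in the KO, and those of only 3 mitotic genes 15.3 to 23.1% and 48.6 and 66.7%.

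Just outside the rule, with a Dlx UMI but only 2 mitotic genes, lay 9, 15 and 99 cells of the WT and 45 and 35 of KO4 and KO5. Their Dlx5 was 1.11, 1.68 and 1.18 UMIs per 10000 in the WT and 0.204 and 0.386 in the KO, and among members with exactly 3 mitotic genes it was 1.78, 2.61 and 1.68 and 0.376 and 0.256. On the other edge, cycling cells with 0 Dlx UMIs had 0.0433, 0.179 and 0.173 in the WT and 0.232 and 0.0482 in the KO. WT members with a single Dlx UMI had 1.91, 1.58 and 1.06. Dlx5 was thus raised in WT cells from the first Dlx UMI on, whereas KO members with a single Dlx UMI had 0.111 and 0.197, each resting on 1 cell with Dlx5, below Dlx-negative cells in KO4 and above them in KO5. KO4 members with 2 or more Dlx UMIs had 0.714, with Dlx5 in 23.1% of 13 cells, and the 2 such cells of KO5 had 0. Another 38 cells of the 5 libraries met the rule but for a UMI of Eomes.

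The genes of the rule themselves were lower in KO members, to unequal extents. Top2a stood at 19.7, 15.1 and 9.96 UMIs per 10000 in the WT and 3.5 and 1.44 in the KO. Mki67 stood at 5.15, 6.07 and 6.13 in the WT and 1.78 and 2.59 in the KO. Ube2c, at 8.14, 8.07 and 9.95 in the WT and 7.32 and 6.15 in the KO, lay closer together, as did Ccnb1, at 5.83, 5.51 and 3.26 in the WT and 3.18 and 2.97 in the KO. In none of these 4 genes did the groups overlap. Dlx1 was 6.7, 5.41 and 4.59 in the WT and 2.35 and 2.12 in the KO, and Dlx2 was 3.97, 4.34 and 5.44 in the WT and 3.08 and 2.59 in the KO. Dlx1 and Dlx2 lie side by side on chromosome 2 (GRCm38, GENCODE vM21), at chr2:71528113-71533981 on the plus strand and chr2:71543408-71546754 on the minus strand.

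Tcf4 itself was 9.74, 8.81 and 9.46 UMIs per 10000 in the WT and 7.24 and 6.89 in the KO in the members. The KO libraries lay below the WT ones without overlap. The compared libraries leave out a WT animal that the paper excluded for Tcf4 below the KO, a choice that favours this order. The log2 fold change of -0.36 (SE 0.19, adjusted p = 0.27) did not pass the test. Fold changes here are of KO over WT on a log2 scale of the mean level plus 1, in UMIs per 10000, which understates the change of low genes. They were tested with limma across all genes, with the animal as the replicate. The few members of the libraries labelled WT1, WT5 and KO1 had 2.45, 5.62 and 3.83 UMIs of Tcf4 per 10000. Among the other E-proteins, Tcf3 changed by -0.67 (SE 0.21, adjusted p = 0.085) and Tcf12 by -0.51 (SE 0.19, adjusted p = 0.14). Of the 15 E-protein, Id and proneural genes tested, none passed.

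In all, 361 of 8868 genes differed between WT and KO members at an adjusted p under 0.05, a background of 4.07%. Of these, 130 (1.47% of the genes tested) were higher and 231 (2.6%) lower in the KO, including 4 genes of the rule, from which nothing is read, and the median over all genes was -0.05. Before adjustment, 1996 genes passed 0.05. The count rests on the libraries used. It was 71, 75 and 214 without WT2, WT3 or WT4, 2394 and 671 without KO4 or KO5, and 1 when WT5 was added. With the replicate number as a block, which could be fitted to WT4, WT5, KO4 and KO5, limma called 0 genes. Before adjustment, 278 passed 0.05 there. These 4 libraries include WT5, whose members lay with the KO in Actb and Clasp2. So few libraries cannot show whether a pairing removes the differences. The count also moved with the cells admitted, to 3 with at least 2 Dlx UMIs, 13 with at least 4 mitotic genes, 35 after thinning and 142 among members with exactly 1 Dlx UMI. At least 2 Dlx UMIs left 13 and 2 KO members and at least 4 mitotic genes left 18 and 5, so fewer cells and another makeup cannot be told apart there. In these 2 settings 327 of 348 and 351 of 352 of the called genes that could be tested kept their direction, and 2122 and 1945 genes passed 0.05 before adjustment.

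**Figure D3:**
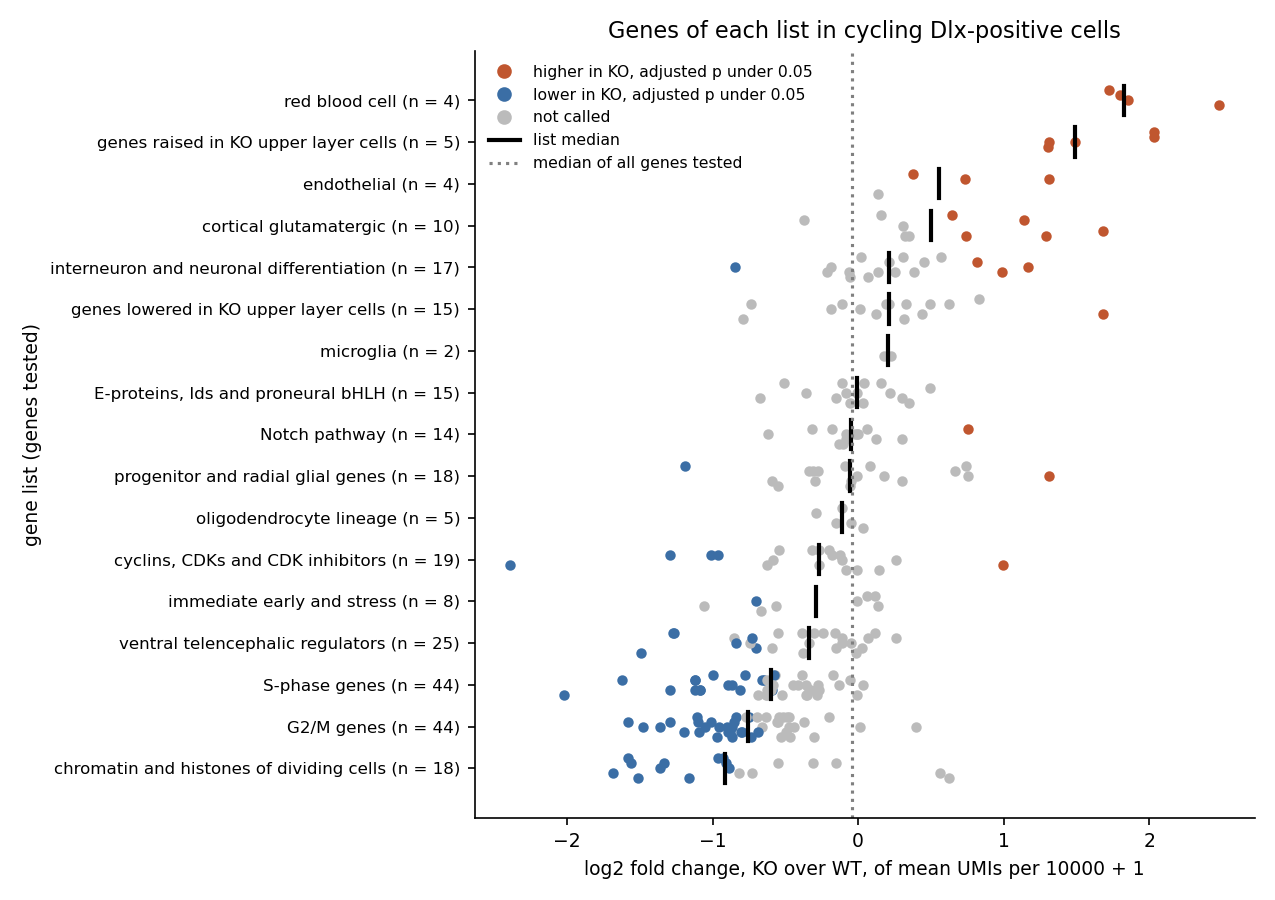
Log2 fold change, KO over WT, of mean UMIs per 10000 plus 1 (horizontal axis) for each tested gene (point) of 17 gene lists (vertical axis), without the genes of the rule. Blue and orange points passed the test as lower and higher, black bars are list medians, and the dotted line is the median of all genes. The lists of dividing cells lie left, with medians of -0.92 to -0.27, and red blood cell genes lie farthest right at 1.82.

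Genes of dividing cells were lower in the KO members, which were chosen by genes of the same kind. Just 3 of the rule genes were detected in 48.6 and 66.7% of KO members and in 15.3 to 23.1% of WT members. The part of this makeup in the fall was not tested. The calls of the G2/M list were mostly lost after thinning and all lost with at least 4 mitotic genes. Of the 44 G2/M genes tested besides the rule genes, 24 fell and none rose, with a median of -0.76 and 42 of 44 below 0. Hmgb2, a chromatin-bending protein of proliferating cells, was 30.3, 40.4 and 32 UMIs per 10000 in the WT and 15.3 and 10.4 in the KO and changed by -1.36 (SE 0.21, adjusted p = 0.001). Birc5, which encodes survivin of the chromosomal passenger complex, was 4.09, 5.88 and 5.9 in the WT and 1.72 and 0.841 in the KO and changed by -1.48 (SE 0.23, adjusted p = 8.81e-04). Smc4, a condensin subunit, was 5.99, 6.61 and 6.35 in the WT and 1.71 and 1.21 in the KO and changed by -1.58 (SE 0.20, adjusted p = 2.08e-04). In each of these genes both KO libraries lay below all 3 WT libraries. Ccna2, for cyclin A, changed by -1.29 and Tpx2, for a spindle assembly factor, by -1.09, while Cdc20, an activator of the anaphase-promoting complex, changed by -0.63 with an adjusted p of 0.18 and did not pass. Gas2l3 and Tubb4b were the 2 genes above 0, and neither passed. Without the rule genes, the summed level of the list was 136, 155 and 137 UMIs per 10000 in the WT and 68.0 and 48.1 in the KO.

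The S-phase genes showed the same direction, 18 of 44 falling and none rising, with a median of -0.60. Rrm2, a ribonucleotide reductase subunit that supplies deoxynucleotides, was 5.75, 10.9 and 5.46 UMIs per 10000 in the WT and 1.24 and 0.761 in the KO and changed by -2.02 (SE 0.25, adjusted p = 1.62e-04). The gene 2810417H13Rik, which encodes a factor bound to the PCNA clamp and also known as Pclaf, fell most of all genes named here. It was 9.99, 15.3 and 9.26 in the WT and 1.78 and 0.742 in the KO and changed by -2.48 (SE 0.24, adjusted p = 1.66e-05). Pcna itself, the sliding clamp of replication, changed by -1.29, Cdca7, for a chromatin factor, by -1.62, and Lig1, for the ligase that joins Okazaki fragments, by -1.12. Of the helicase subunits Mcm2 to Mcm7, Mcm5 passed, at -0.65. The sum over the list was 53.2, 75.1 and 59.0 in the WT and 18.9 and 20.7 in the KO, so that the lowest WT library had more than both KO libraries together.

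Among 18 genes of chromatin and histones of dividing cells, 11 fell and none rose, with a median of -0.92. H2afz, for the histone variant H2A.Z, was 55.6, 71.7 and 54.8 in the WT and 26.4 and 20.6 in the KO and changed by -1.33 (SE 0.20, adjusted p = 7.90e-04). Hmgn2, a nucleosome-binding protein, was 21.6, 48.6 and 20.1 in the WT and 10.1 and 7.26 in the KO and changed by -1.58 (SE 0.28, adjusted p = 0.0037). Ezh2, the methyltransferase of the Polycomb repressive complex, changed by -1.16, Dek by -1.68 and the linker histone gene Hist1h1b by -1.56. Set and Cbx3 lay above 0 and did not pass.

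Among cyclins and their kinases, 4 of 19 fell and 1 rose. Ccnd2, the cyclin that carries progenitors through G1 (chr6:127125162-127152193, minus strand), was 53.8, 45.4 and 31.3 UMIs per 10000 in the WT and 8.39 and 6.34 in the KO. Both KO libraries lay far below the WT ones, and the change was -2.39 (SE 0.22, adjusted p = 1.66e-05). Outside the comparison it was 9.76 in WT5 and 37.7 in KO2, each against the direction of its label. Cdkn1b, for the cell cycle inhibitor p27, was 0.592, 2.37 and 1.06 in the WT and 2.92 and 4.03 in the KO and rose by 1.0 (SE 0.26, adjusted p = 0.039). Cdk1 and Cdkn2c changed by -1.01 and -0.96. The D-type partner kinase genes Cdk4, at -0.63 with an adjusted p of 0.074, and Cdk6, at -0.12 with an adjusted p of 0.78, did not pass.

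Regulators of the ventral telencephalon fell in part. Of 25 tested besides Dlx1 and Dlx2, 6 fell and none rose, with a median of -0.34 and 21 of 25 below 0. Exactly 1 Dlx UMI was found in 62.9 and 86.7% of KO members and in 13.8 to 32.8% of WT members. The part of this makeup in the fall was not tested. No ventral regulator was called with at least 2 Dlx UMIs or with at least 4 mitotic genes, settings that left few KO cells. Dlx5 (chr6:6877805-6882085, minus strand) was 1.44, 2.44 and 2.22 UMIs per 10000 in the WT and 0.335 and 0.171 in the KO and changed by -1.26 (SE 0.21, adjusted p = 0.0016). Dlx6os1 was 3.17, 3.72 and 4.02 in the WT and 0.836 and 0.474 in the KO and changed by -1.49 (SE 0.21, adjusted p = 3.54e-04). It is annotated at chr6:6820189-6871592 on the minus strand, across Dlx6 on the plus strand at chr6:6863334-6868568, so reads of the pair are told apart only by strand, and the counting of strand is not given in the sources used here. In both genes every KO value lay under every WT value by more than the spread of the WT libraries. Meis2 changed by -0.73 (SE 0.20, adjusted p = 0.043), Etv1, an ETS factor of olfactory and lateral eminence lineages, by -0.84, and Sp8 by -0.70.

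Other members of the list did not pass. Sp9 was 0.757, 0.828 and 2.68 in the WT and 0.539 and 0.208 in the KO, highest in WT4, with a change of -0.74 with an adjusted p of 0.11. Gad2 was 0.836, 1.58 and 1.89 in the WT and 0.749 and 0 in the KO, with a change of -0.85 with an adjusted p of 0.052. Gsx2, a homeobox gene of the early lateral eminence progenitor, was low in all, at 0.271, 0.0858 and 0.530 in the WT and 0.255 and 0.357 in the KO. The 4 genes above 0, Ebf1, Nr2f2, Nr2f1 and Gsx2, reached at most 0.26. Without Dlx1 and Dlx2, the summed level of the list was 30.3, 29.6 and 35.6 UMIs per 10000 in the WT and 16.6 and 12.3 in the KO. In cycling Dlx-negative cells it was 15.9, 16.4 and 16.9 in the WT and 14.8 and 12.7 in the KO.

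**Figure D4:**
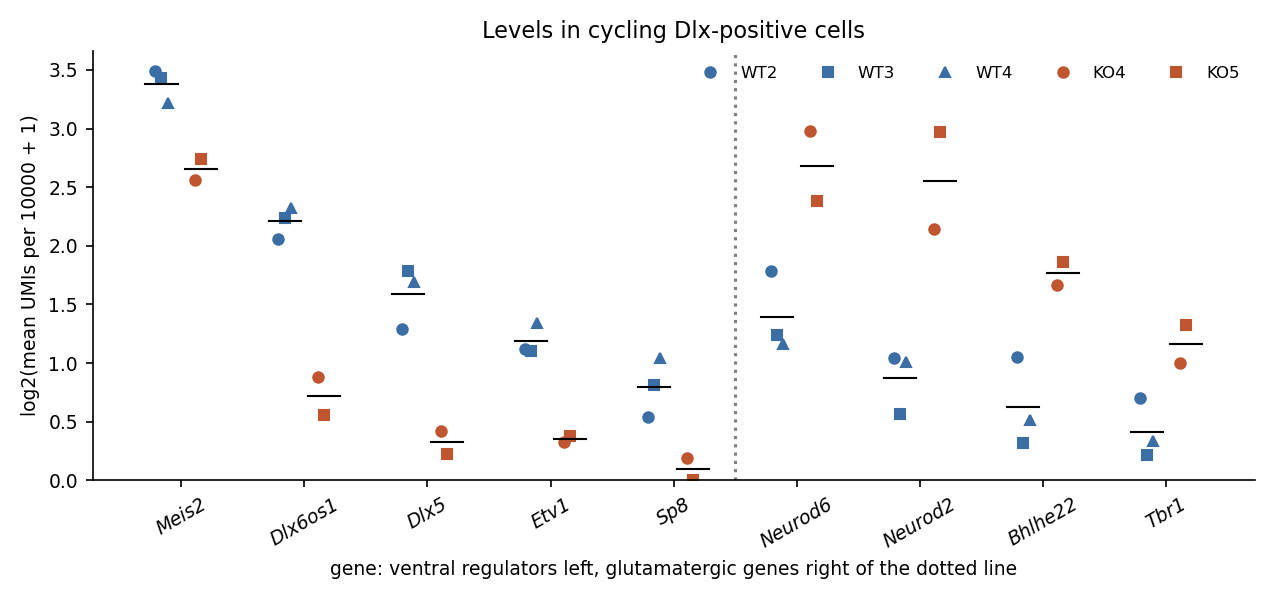
Levels in cycling Dlx-positive cells, as log2 of mean UMIs per 10000 plus 1 (vertical axis), of 5 called ventral regulators (left of the dotted line) and 4 called cortical glutamatergic genes (right). Each point is a library, WT2, WT3 and WT4 in blue and KO4 and KO5 in orange, and black bars are means of the log values. All 3 WT points lie above both KO points for the 5 ventral genes and below them for the 4 glutamatergic ones.

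Cortical glutamatergic genes were higher in the KO members, with 5 of 10 rising, none falling and a median of 0.50. Neurod2, a bHLH factor of young pyramidal neurons, was 1.06, 0.481 and 1.01 UMIs per 10000 in the WT and 3.41 and 6.84 in the KO and changed by 1.68 (SE 0.24, adjusted p = 5.44e-04). Neurod6, its relative, was 2.44, 1.37 and 1.24 in the WT and 6.89 and 4.22 in the KO and changed by 1.29 (SE 0.24, adjusted p = 0.0048). Bhlhe22 and Tbr1, regulators of cortical neuron subtypes, changed by 1.14 and 0.74. The same transcripts were also common in cells that should lack them, and more so in the KO. In endothelial and microglial cells, Neurod6 had a UMI in 50, 30 and 46.7% of WT cells and 78.5 and 81.8% of KO cells, and Neurod2 in 22.2, 30 and 33.3% and 51.4 and 60.6%. In the members the shares were 40.6, 44.6 and 41.0% and 85.7 and 53.3% for Neurod6, and 26.6, 20 and 35.8% and 68.6 and 80% for Neurod2. Over the list the members summed to 6.81, 3.64 and 4.07 in the WT and 15.9 and 18.9 in the KO, and Eomes was 0 by the rule. The part of free RNA or of cells captured together in this rise was not tested.

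Members with fewer than 3 UMIs on 9 glutamatergic genes, an alternative chosen after seeing the data, left 10 and 3 cells in the KO and removed the rise of this list by its construction. Of 8270 genes limma called 0, with 2533 at an unadjusted p under 0.05, and 332 of the 344 called genes that could be tested kept their direction. The medians of the G2/M, S-phase and ventral lists were -0.68, -0.61 and -0.35 there, with 43 of 44, 42 of 44 and 19 of 24 genes below 0 and none called.

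Genes of neuronal differentiation rose in 3 of 17 cases and fell in 1. Mapt, for the axonal protein tau, was 4.17, 1.64 and 3.13 in the WT and 5.84 and 9.89 in the KO and changed by 1.17 (SE 0.26, adjusted p = 0.018). Stmn2, a growth cone protein, changed by 0.81 and the neuropeptide gene Npy by 0.99, while Elavl4, for a neuronal RNA-binding protein, changed by -0.85. Tubb3 and Dcx, which mark young neurons in general, were at 0.21 with an adjusted p of 0.55 and -0.19 with an adjusted p of 0.61 and did not pass.

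Progenitor and radial glial genes moved little as a list, with a median of -0.05, 1 of 18 higher and 1 lower. Sox2, the transcription factor that maintains neural progenitors, was 1.86, 2.24 and 1.74 UMIs per 10000 in the WT and 0.382 and 0.199 in the KO and changed by -1.19 (SE 0.19, adjusted p = 0.0016). It was detected in 43.8, 63.1 and 56.7% of WT members and 11.4 and 6.67% of KO members. Nfia, a factor of gliogenesis and of layer neurons, was 2.35, 3.53 and 2.63 in the WT and 7.55 and 9.37 in the KO and rose by 1.31 (SE 0.21, adjusted p = 0.0012). Fabp7, the radial glial lipid-binding protein, was 16, 13.1 and 12.1 in the WT and 13.9 and 40.1 in the KO, with KO5 alone above the others and a change of 0.75 with an adjusted p of 0.14. Of 14 Notch pathway genes only Notch2 passed, at 0.75, and the targets Hes1 and Hes5, which hold back differentiation, and Hes6, which favours it, stood at -0.01, 0.30 and -0.08. None of the 5 oligodendrocyte lineage genes tested passed, and Olig2, the regulator of that lineage, was 0.101, 0.302 and 0.506 in the WT and 0.442 and 0.218 in the KO.

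Transcripts of other cells rose beside these. All 4 haemoglobin genes tested rose, with a median of 1.82, and the haemoglobin sum in the members was 4.35, 7.0 and 4.21 UMIs per 10000 in the WT and 22.1 and 53.9 in the KO. Cycling Dlx-negative cells had nearly the same, at 6.22, 6.92 and 4.45 and 23.4 and 58.9. Of 4 endothelial genes, Igfbp7, Cldn5 and Kdr rose, by 1.31, 0.74 and 0.38. The endothelial sum was 0.879, 0 and 0.344 in the WT and 2.65 and 4.95 in the KO, and the 2 microglial genes tested did not pass. Of 8 immediate early and stress genes, Hsp90aa1 fell (-0.70). The part of these transcripts in the other results was not tested.

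Other large rises were of genes in wide use. Actb, for cytoplasmic actin, was 31, 51.3 and 36.7 UMIs per 10000 in the WT and 159 and 165 in the KO and changed by 2.03 (SE 0.21, adjusted p = 2.65e-05). Clasp2, a microtubule plus-end protein, was 0.392, 0.441 and 0.554 in the WT and 4.1 and 6.02 in the KO and changed by 2.03 (SE 0.21, adjusted p = 2.08e-05). The library labelled WT5 lay with the KO in both, at 193 and 5.35. Clasp2 had a UMI in 22.2, 30 and 26.7% of endothelial and microglial cells of the WT and in 63.6% of those of both KO4 and KO5. Ncam1, a neural adhesion molecule, changed by 1.49 and Pam, an enzyme of peptide amidation, by 1.31, so that 5 of 5 listed genes rose here. This list came from the upper layer cells of these same animals and is not independent evidence. Of 15 listed as lower in KO upper layer cells, none fell in the members and Neurod2 rose. Kdm6b, a histone demethylase gene, and Abhd2 rose by 1.64 and 1.46. The largest falls beyond those above were Zbtb20 (-1.86), for a zinc finger repressor, Tmpo (-1.83), for nuclear envelope proteins, Pbk (-1.63), for a mitotic kinase, and Smc2 (-1.60), for a condensin subunit.

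Which of these changes were stronger in the members than in other dividing cells was tested on the difference between members and cycling Dlx-negative cells of the same library, 287 WT and 181 KO cells. In 29 of 8320 genes (0.349%) the change differed, Top2a of the rule among them. Ventral regulators stood out: 4 of 20 on the list fell more in the members. Dlx5 changed by -1.26 in the members and 0.01 in the Dlx-negative cells, a difference of -1.27 (SE 0.20, adjusted p = 0.011). That of Dlx6os1 was -1.59 (SE 0.27, adjusted p = 0.017) and of Sp8 -1.02 (SE 0.19, adjusted p = 0.027). In Dlx-negative cells these genes were near 0 in both genotypes, so they had little room to fall there. Cdca7, at -1.45 (SE 0.23, adjusted p = 0.011), 2810417H13Rik, at -1.19 (SE 0.19, adjusted p = 0.011), Ccnd2, at -1.02 (SE 0.20, adjusted p = 0.034), and Rrm2, at -1.0 (SE 0.20, adjusted p = 0.039), also fell more in the members.

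Of 18 progenitor and radial glial genes, 3 differed the other way, and so did Id3, 1 of 15 genes of the E-protein and Id list. These 4 genes were lower in the KO than the WT among Dlx-negative cells. Slc1a3, the glial glutamate transporter gene, was 4.66, 4.01 and 4.50 UMIs per 10000 in Dlx-negative cells of the WT and 1.74 and 0.834 in those of KO4 and KO5, and 1.24, 0.883 and 1.2 in the WT and 1.21 and 1.55 in the KO in the members, a difference of 1.44 (SE 0.23, adjusted p = 0.011). Ptprz1, Mt3 and Id3 differed by 1.07 (SE 0.19, adjusted p = 0.024), 1.45 (SE 0.27, adjusted p = 0.027) and 1.25 (SE 0.24, adjusted p = 0.029). In the members none of these 4 genes passed the test. Ptn, a growth factor of radial glia, differed by 1.29 (SE 0.21, adjusted p = 0.011).

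Most of the fall of mitotic genes was not shown to differ between both kinds of dividing cells. None of 44 G2/M genes and none of 18 chromatin genes passed the test of the difference, with medians of -0.15 and -0.25. Hmgb2 changed by -1.36 in the members and -1.20 in the Dlx-negative cells, a difference of -0.16 (SE 0.15, adjusted p = 0.68). Actb changed by 2.03 and 1.88, a difference of 0.16 (SE 0.14, adjusted p = 0.67), and Hbb-bs by 2.48 and 2.22. The G2/M sum in Dlx-negative cells was 156, 174 and 130 UMIs per 10000 in the WT and 76.6 and 67.7 in the KO. Unlike the sum given above for the members, it includes the rule genes by which these cells were chosen. The count of 29 was 0 without WT2 or WT3, 27 without WT4, 1412 without KO4 and 25 without KO5.

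**Figure D5:**
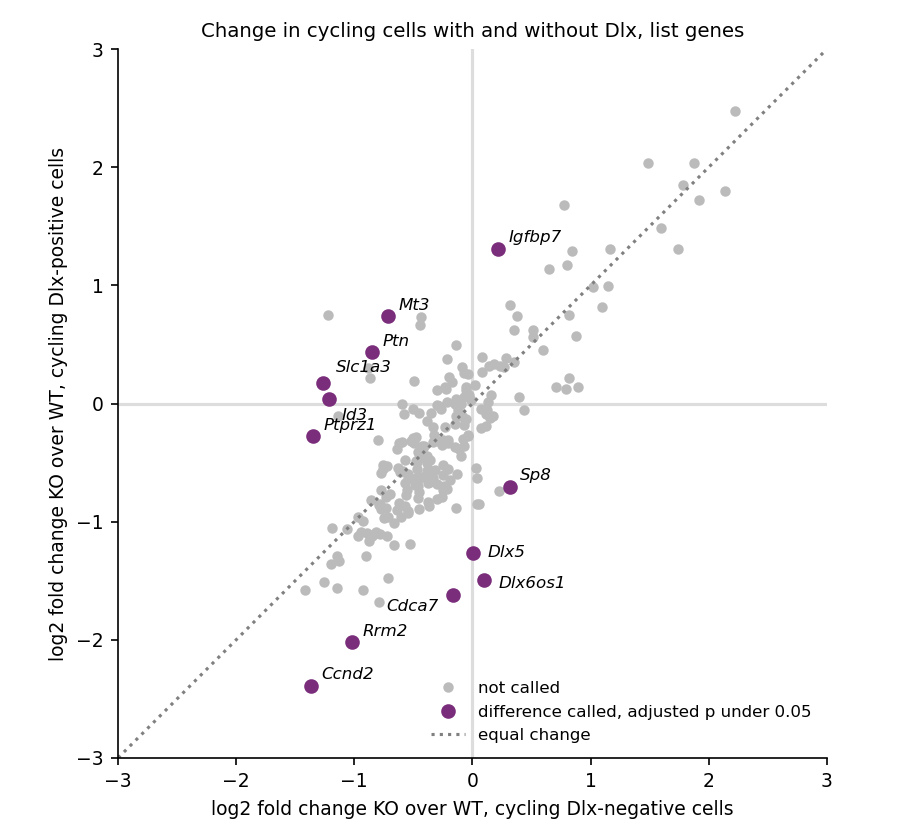
Log2 fold change, KO over WT, of the list genes in cycling Dlx-positive cells (vertical axis) against that in cycling Dlx-negative cells (horizontal axis), with the dotted line at equal change. Purple, named points are the 12 of 230 genes whose difference passed the test. Dlx5 and Dlx6os1 lie near 0 on the horizontal axis and between -1.49 and -1.26 on the vertical one, and Slc1a3 and Id3 lie near -1.2 and near 0.

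Against non-cycling Dlx-positive cells, 1101 in the WT and 448 in the KO, the change differed in 108 of 8025 genes (1.35%). The change was lower in the members for 67 of them and higher for 41. Among the lower were 16 of 28 G2/M genes and 10 of 33 S-phase genes, which restates their fall in the members because non-cycling cells hold few of these transcripts. Hmgb2 differed by -1.86 (SE 0.19, adjusted p = 9.90e-06), H2afz by -1.13 (SE 0.11, adjusted p = 9.90e-06) and Rrm2 by -2.12 (SE 0.24, adjusted p = 3.94e-05). Ccnd2, present in both kinds of cells, changed by -2.39 in the members and -1.19 in the non-cycling cells, a difference of -1.20 (SE 0.21, adjusted p = 0.0033). None of 22 ventral regulators passed, Dlx5 coming nearest at -0.81 (SE 0.23, adjusted p = 0.088). Dlx5 was 0.292, 0.497 and 1.44 UMIs per 10000 in non-cycling cells of the WT and 0.197 and 0.255 in those of KO4 and KO5.

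Several neuronal genes changed more in the members, from lower WT levels than in the non-cycling cells. Neurod2 differed by 1.53 (SE 0.24, adjusted p = 0.0011) and Neurod6 by 1.10 (SE 0.26, adjusted p = 0.034). In non-cycling cells Neurod2 changed by 0.15 and Neurod6 by 0.19, so the rise of both was larger in the members. The 5 libraries had 2.3, 1.35 and 1.78 UMIs of Mef2c per 10000 in WT members and 6.67 and 6.50 in KO members, below the 8.39, 7.77 and 7.73 and the 10.4 and 8.91 of non-cycling cells. Mef2c, a MADS-box factor of maturing neurons, differed by 1.20 (SE 0.18, adjusted p = 7.03e-04) and Rtn1, an endoplasmic reticulum protein gene of neurons, by 0.92 (SE 0.13, adjusted p = 4.36e-04). Actb, at 0.35 (SE 0.10, adjusted p = 0.1), did not pass. The count of 108 was 39 and 47 without WT2 or WT3, 114 without WT4, 879 without KO4 and 45 without KO5.

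Cell by cell, WT members spanned a wide range of S-phase and G2/M transcripts. The summed S-phase genes had quartiles of 24.4 and 73.3 UMIs per 10000 in WT2, 40 and 112.6 in WT3 and 25.4 and 84.1 in WT4, and of 13 and 25 in KO4 and 11.7 and 29.2 in KO5. For G2/M genes outside the rule, the quartiles were 83.0 and 177, 101 and 208, and 79.6 and 179.7 in the WT, and 28.3 and 96.8, and 26 and 62.3, in the KO. The upper quartiles of both KO libraries for S-phase genes lay below the medians of the 3 WT libraries, at 52.3, 70.4 and 55.7. The members of the libraries labelled WT5 and KO1 had mean S-phase sums of 21.2 and 44.1 and mean G2/M sums of 35.5 and 139, each nearer to the other genotype than to its own.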

How the data were processed

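Neocortices of mouse embryos at E18.5 had been profiled with the Chromium 3′ v2 kit, and reads start at the 3′ end of transcripts. The submitters' processing notes name Cell Ranger 2.1.0, Seurat 2.3.4 and R 3.6.0 with mm10 (GRCm38). The authors deposited WT4, WT5, KO4 and KO5 as UMI counts, filtered by them on genes, UMIs and mitochondrial share per cell. In the other 5 libraries the deposited unit is Seurat's natural log of scaled UMIs (1 added, 10000 per cell), and 100% of them were brought back to whole UMIs within 1e-06.

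Detection, haemoglobin and rule were applied to these UMIs. Levels are means over cells of UMIs per 10000. Libraries were compared with limma-trend with robust variances (limma 3.58.1, R 4.3.3) on log2(mean + 1), keeping genes that reached 0.1 in any 2 libraries, with Benjamini-Hochberg adjustment over all genes and calls under 0.05. Differences between kinds of cells were tested on the difference of both log2 values within each library. Shares and medians were compared with 2-sided exact permutation tests. edgeR 4.0.16 and DESeq2 1.42.0 on summed UMIs, other filters, pseudocounts, rules, thinning and left-out libraries were alternatives. Each library is 1 embryo, whose litter is not given in the sources used here. Scrublet (scanpy 1.11.5, Python 3.11.15) marked 0.234% of kept cells as doublets, too few to serve, so the highest 5% of scores of each library, 45 of 475 members, were left out in an alternative. Endothelial and microglial cells were those with at least 3 markers of either. The scripts were tested on simulated data.

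The members and gene lists were chosen with earlier results of these data known. Named genes are those of the rule, the called genes and the 4 highest of each of 17 lists, and the 10 largest rises and falls among called genes whose groups did not overlap and that had 50 UMIs or more. Genes named beyond these were chosen after their values were seen. A few genes that meet these rules are not reported here by name, although counts over lists include them. Sequences are from RefSeq, with 6 of 6 rule genes matched. Positions are from GENCODE vM21 by symbol.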

Additional observations from a re-analysis of the deposited data

Results flagged for a closer look

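Tcf4 in the members of the library labelled KO1 was 3.83 UMIs per 10000, set apart from the other 3 KO libraries by Dixon's criterion. It rests on 7 cells, and chance sets apart about 1 in 20 of such groups, of which 12 were tested.

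The members of the library labelled KO2, which was not in the comparison, were 6.78% of its 118 kept cells (95% exact interval 2.97 to 12.9), above each of the 3 compared WT libraries.

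For 9 genes the change between WT and KO differed between the members and cycling Dlx-negative cells, by limma. On the log2 scale the change in the members minus that in the other cells was -1.25 for Abracl, -1.33 for Mpped2, -1.27 for Dlx5, -1.19 for 2810417H13Rik, -1.45 for Cdca7, -1.20 for Pfn2 and -1.59 for Dlx6os1, all lower in the members. It was 1.29 for Ptn and 1.44 for Slc1a3, higher in the members.

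Against non-cycling Dlx-positive cells the 10 leading differences were -1.13 for H2afz, -1.86 for Hmgb2, -2.63 for 2810417H13Rik, -2.12 for Rrm2, -1.78 for Pbk, -1.69 for Smc4, -1.86 for Birc5, -1.61 for Dek, 0.92 for Rtn1 and -1.57 for Smc2. Of these only Rtn1 was higher.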

How the results depend on the processing

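The mean share of members kept its direction in the alternatives run on it. Groups overlapped with WT5 added, with all libraries as labelled, and for members under 3000 UMIs as a share of kept cells of any depth. As a share of cycling cells without Eomes under 3000 UMIs, the groups did not overlap. With the compared libraries its p could not pass the threshold. With all libraries as labelled it could, down to 0.0079, and was 0.73 by the exact permutation test. Leaving out 1 library gave differences of -4.13 to -3.44 percentage points in the share and of -2138.5 to -764.5 in the median UMIs. The count of 361 called genes was 71 to 2394 without 1 library, 0 by limma without a filter on low values (1999 at an unadjusted p under 0.05), 315 with a pseudocount of 0.25, 301 with edgeR (TMM), 120 with DESeq2, 857 with at least 2 and 13 with at least 4 mitotic genes, 3 with at least 2 Dlx UMIs, 35 after thinning and 55 with members under 3000 UMIs. Chosen after seeing the data, members with exactly 1 Dlx UMI gave 142, of which 121 were shared with the 361, and those with fewer than 3 glutamatergic UMIs gave 0 (2533 unadjusted). Adding WT5, which is also the set of all libraries with at least 10 members, gave 1 (814 unadjusted). Of the 24 falls of the G2/M list, 16 were called with exactly 1 Dlx UMI, 2 after thinning and 0 with at least 4 mitotic genes. The scaling of edgeR (TMM) put the median of all genes at -0.25.

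The 29 differences from cycling Dlx-negative cells were 0 to 1412 without 1 library, 13 with a pseudocount of 0.25, 128 with at least 2 mitotic genes, 1 after thinning, and 0 by limma without a filter, with at least 4 mitotic genes or with at least 2 Dlx UMIs. The 108 from non-cycling cells were 39 to 879 without 1 library, 52 with a mean of at least 1, 236 with at least 2 and 3 with at least 4 mitotic genes, 9 after thinning, and 0 without a filter or with at least 2 Dlx UMIs. With 1044 and 1167 genes at an unadjusted p under 0.05 in these tests, edgeR called 36 and 127.

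Whether equal replicate numbers pair the libraries was not settled. In the members, WT and KO libraries numbered 2, 4 and 5 had correlated deviations of 0.43, 0.098 and 0.28, under the limit of 0.1 for number 4, and WT5 with KO4 had 0.16. In non-cycling Dlx-positive cells they were 0.27, 0.21 and 0.18, and every library correlated best with its own number, a hint from the data. The compared libraries share only number 4. A replicate block could be fitted to WT4, WT5, KO4 and KO5 and gave 0 called genes by limma (278 unadjusted), too few libraries to decide. In this block Hmgn2 turned to 0.15, Prc1 to 0.033, Ube2s to 0.27 and Stmn2 to -0.11. In members under 3000 UMIs, Tcf4 turned to 0.23 and Cenpe to 0.24. With at least 2 Dlx UMIs, Tpx2 turned to 0.18 and Npy to -0.19. With fewer than 3 glutamatergic UMIs, where the choice of cells lowers these genes, Neurod6 turned to -0.17, Tbr1 to -0.063 and Bhlhe22 to -0.19. The cause was not tested. Of the other alternatives of the named genes, 1361 kept direction and call and 1043 kept the direction but lost the call. Depth, at 15 and 35 members in the KO libraries, limits what low genes can show.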
